A study of Mus musculus with 14 samples.

Results

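The 9 genes described here encode natural killer receptors and cytotoxic granule proteins, and were read in mouse pancreatic islets. The receptors are the lectin receptors Klrb1b, Klrd1, Klrk1 and Klrg1 and the natural cytotoxicity receptor Ncr1. The granule genes are Nkg7, Gzma, Gzmb and Prf1. They are 9 of the 19938 genes tested on the array, and each was read from the 1 transcript cluster whose annotation names it alone. Klrb1b was chosen by its measured difference between islets with and without active IKK2. The others were chosen as further genes of natural killer receptors and cytotoxic granules. The Klrb1b difference is therefore a description with no test, and the question was whether the other 8 genes follow it. Klrb1b was 3.98-fold above control on the group means and higher on all 5 arrays with active IKK2. Of the other 8 genes, 0 passed the test in any comparison. Between 0.0752% and 2.25% of all genes tested passed, depending on the comparison, so 0 of 8 does not set these genes apart.

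The islets came from mice 11 weeks old on a mixed C57BL/6 and NMRI background (1:1), kept free of specific pathogens and left untreated. The 5 control arrays were compared with 4 arrays of Pdx-1+/- mice, which carry the driver allele Pdx-1-tTA and so have a single working copy of Pdx-1, a transcription factor of β-cells. The third group holds 5 arrays of IKK2-CApdx-1 mice, called IKK2-CA here. They carry the same driver allele, which makes them haploinsufficient for Pdx-1 as well, and through it express constitutively active IKK2, the kinase that switches on NF-κB, in β-cells. These mice were diabetic, so active IKK2 and diabetes cannot be told apart in either comparison with IKK2-CA islets. In the comparison with control islets the single working copy of Pdx-1 differs as well. The labels do not say that each array is a separate mouse, so the p-values measure the spread between these arrays, which may in part be technical. Values are log2 RMA signals; a difference of 1 is a doubling. They compare arrays for the same gene and not genes with each other.

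Natural killer cells kill without a rearranged antigen receptor. Their activity is set by the balance of inhibitory and activating surface receptors, many of them lectin-like proteins encoded side by side in the natural killer gene complex. On contact with a target they release granules in which perforin opens the membrane and granzymes cut proteins inside the cell. Cytotoxic T cells use the same granules and carry several of the same receptors, and some receptors of the family are also found on myeloid and dendritic cells. A level in whole islets therefore does not name the cell that made the RNA. In such bulk samples fewer cells of a type and less RNA per cell cannot be told apart either.

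The proximal promoters, which the selection did not use, are shown first. RefSeq windows on GRCm38.p6, from 250 bases before to 50 bases after the start site, were found for 7 of the 9 genes, the exceptions being Klrd1 and Klrg1. The RUNX core TGTGGT, searched on both strands (its reverse complement reads ACCACA), occurs in 6 of these 7 windows and is not among the letters of the Klrb1b window. Of all 32851 promoter windows, 16.8% hold it, so the Klrb1b window is like most windows in lacking it. Of the motifs searched, the RUNX core is the 1 found in the largest number of these 7 windows. Klrb1b, Klrk1 and Gzmb are printed 5′ to 3′ as a lectin receptor without the motif, the gene of the other 8 with the largest difference, and a granule gene with the motif at 2 places. Capitals mark TGTGGT and its reverse complement.
Klrb1b, chr6:128826266-128826565, minus strand: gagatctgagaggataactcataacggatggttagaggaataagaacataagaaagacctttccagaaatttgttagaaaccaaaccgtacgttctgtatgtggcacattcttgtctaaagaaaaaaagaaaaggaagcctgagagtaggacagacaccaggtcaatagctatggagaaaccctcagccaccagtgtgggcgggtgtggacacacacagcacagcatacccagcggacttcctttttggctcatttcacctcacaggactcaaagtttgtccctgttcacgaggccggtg
Klrk1, chr6:129623815-129624114, minus strand: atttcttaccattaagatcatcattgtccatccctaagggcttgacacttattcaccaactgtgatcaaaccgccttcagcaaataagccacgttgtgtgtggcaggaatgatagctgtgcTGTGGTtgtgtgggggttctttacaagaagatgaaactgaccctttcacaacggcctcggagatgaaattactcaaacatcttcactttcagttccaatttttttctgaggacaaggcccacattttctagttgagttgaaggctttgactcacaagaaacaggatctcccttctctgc
Gzmb, chr14:56262285-56262584, minus strand: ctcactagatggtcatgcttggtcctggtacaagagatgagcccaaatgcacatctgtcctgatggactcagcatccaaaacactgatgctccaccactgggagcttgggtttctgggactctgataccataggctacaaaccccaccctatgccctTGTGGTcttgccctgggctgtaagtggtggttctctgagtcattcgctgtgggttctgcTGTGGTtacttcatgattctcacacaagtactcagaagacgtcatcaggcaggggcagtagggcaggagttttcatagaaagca
Ncr1 also holds the motif at 2 places, and Nkg7, Gzma and Prf1 at 1 each. The NF-κB consensus, which 8.46% of all windows hold, is in 0 of the 7, and neither these matches nor their absence were tested against factor binding. The AP-1 motif TGANTCA occurs in Klrk1 and Gzmb (7.81% of all windows) and the GAS motif TTCNNNGAA in Nkg7 and Gzmb (8.30%). The T-box motif TCACAC occurs in Ncr1, Nkg7 and Gzmb (14.5%).

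The labelled tissue and genotypes were checked before the comparisons. The glucagon gene Gcg, the most abundant of 11 measured islet genes, read between 12.88 and 13.36 on all 14 arrays. The list as a whole was lower in IKK2-CA than in control islets, with a mean of 11.29 to 11.83 against 11.73 to 12.28. By limma 4 of 11 fell (G6pc2, Slc2a2, Slc30a8 and Sst), beside 1.56% of all genes, and 10 of 11 were below 0. Pdx-1+/- islets, with a mean of 11.34 to 11.80, were also below control for all but 1 of 11 genes, though 0 passed. Between IKK2-CA and Pdx-1+/- islets 0 of 11 passed, with a median difference of log2 -0.15. The part of these shifts in the levels below was not tested. Pdx1 averaged 8.23 ± 0.39 (SD, n = 5) in control islets, 7.14 ± 0.21 (n = 4) in Pdx-1+/- and 6.67 ± 0.55 (n = 5) in IKK2-CA, and neither mutant group overlapped the controls. Ikbkb, the gene of IKK2, was at log2 0.27 above Pdx-1+/- (SE 0.11, limma adjusted p = 0.662), and it is not stated here whether its probes read the transgene. Genes of neighbouring tissues set 3 arrays apart. Pdx-1+/- array 4 read 9.16 for Sis and 9.09 for Fabp2, genes of the intestinal lining, and control array 3 read 6.05 and 6.58, against at most 3.45 and 3.91 on the other 12 arrays. IKK2-CA array 5 read 10.60 for the adipocyte hormone gene Adipoq, against at most 7.38 elsewhere. The main values include all 14 arrays.

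Klrb1b encodes NKR-P1B, an inhibitory lectin receptor. Its signal on IKK2-CA arrays 1 to 5 was 7.57, 7.65, 7.81, 7.57 and 9.13. On the Pdx-1+/- arrays it was 5.86, 5.97, 5.73 and 5.70, and on the control arrays 6.14, 5.92, 5.71, 5.91 and 6.09. The lowest IKK2-CA array thus lay above every other array, and array 5 lay well above the rest of its group. The mean was 4.38-fold above Pdx-1+/- (log2 2.13, SE 0.25) and 3.98-fold above control (log2 1.99, SE 0.24). Without IKK2-CA array 5 these differences were log2 1.84 and 1.70. Pdx-1+/- and control islets, a contrast the choice of the gene did not use, overlapped and differed by log2 -0.14 (SE 0.25, limma adjusted p = 0.999).

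**Figure D1:**
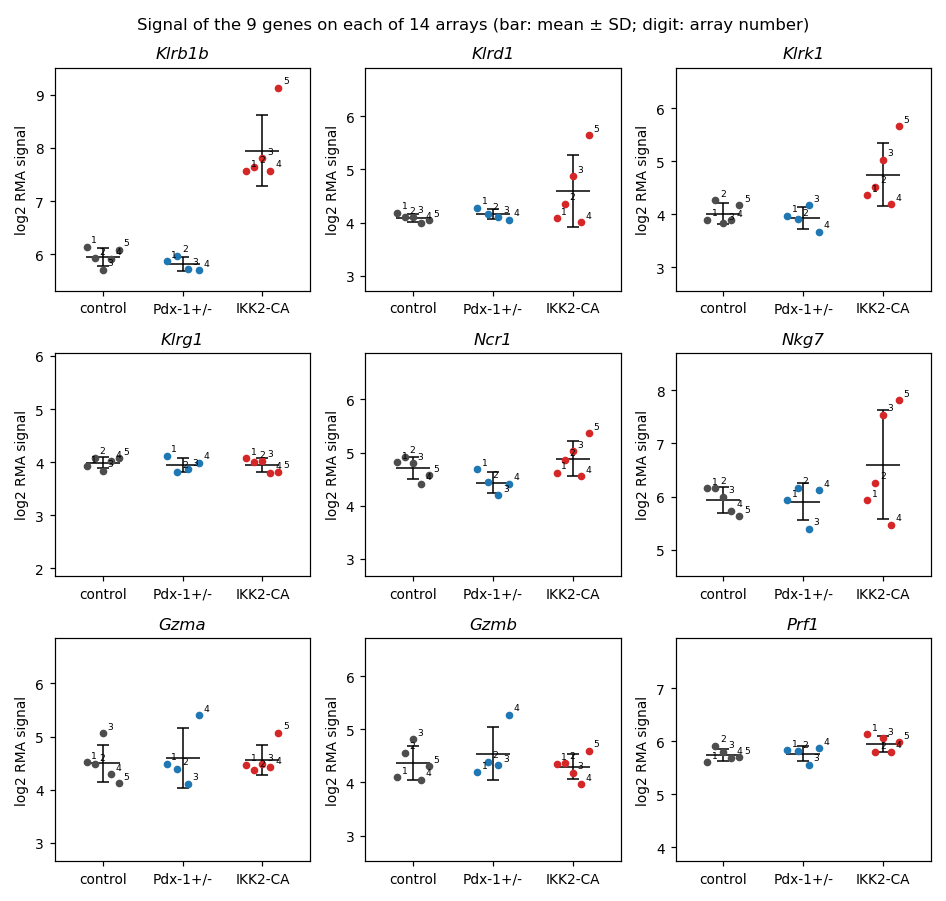
log2 RMA signal (vertical axis) of the 9 genes, by genotype. Each point is 1 array with its array number, and bars give the mean ± SD; every panel spans the same number of log2 units. All 5 IKK2-CA points of Klrb1b (7.57 to 9.13) lie above the other 9, whereas Nkg7 and Klrd1 are raised mainly on IKK2-CA arrays 3 and 5.

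Of the other 8 genes, 0 passed the limma test at an adjusted p of 0.05 against Pdx-1+/- islets, where 0.0752% of all genes tested were called higher. Against control islets the count was also 0 of 8, where 0.682% of all genes were called higher and 1.56% lower (2.25% in all). At an unadjusted p under 0.05 the counts were 2 of 8 (Klrk1 and Ncr1) against Pdx-1+/- and 3 of 8 (Klrk1, Klrd1 and Prf1) against control, beside 7.02% and 15.7% of all genes. The differences had a median of log2 0.31 against Pdx-1+/- and 0.20 against control, beside medians of -0.015 and -0.012 over all genes. Without IKK2-CA array 5 and Pdx-1+/- array 4 the medians of the 8 were 0.18 and 0.13. Both comparisons use the same IKK2-CA arrays. Between Pdx-1+/- and control islets, 0 of 8 passed and 0 of 8 had an unadjusted p under 0.05, beside 0.0953% and 4.71% of all genes; their median was -0.0039 and that of all genes -0.0049. Of the 9 genes, 6 (Klrd1, Klrk1, Klrg1, Ncr1, Gzma and Gzmb) lay among the lowest 30% of genes by mean signal, a range in which arrays are less sensitive to differences.

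Klrk1 encodes NKG2D, an activating receptor that reads stress-induced ligands on target cells. It read 4.35, 4.51, 5.03, 4.19 and 5.65 on the IKK2-CA arrays. The Pdx-1+/- arrays gave 3.97, 3.91, 4.17 and 3.67, and the control arrays 3.89, 4.26, 3.83, 3.89 and 4.17. IKK2-CA and Pdx-1+/- arrays did not overlap, though array 4 (4.19) cleared the highest Pdx-1+/- array (4.17) by little, and against control array 4 fell inside the range. Klrk1 was the 1 of 8 genes without overlap against Pdx-1+/-, where 1.72% of all genes had IKK2-CA arrays wholly above. The difference was log2 0.82 (SE 0.24, limma adjusted p = 0.344) against Pdx-1+/- and 0.74 (SE 0.22, adjusted p = 0.104) against control. The difference from control passed without IKK2-CA array 4 (0.88, adjusted p = 0.034) and with limma's array weights (0.56, adjusted p = 0.0471), and was 0.51 (adjusted p = 0.143) without array 5. The difference from Pdx-1+/- was then 0.59 (adjusted p = 0.372).

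Klrd1 encodes CD94, the partner chain of NKG2 receptors other than NKG2D, some inhibitory and some activating. IKK2-CA arrays 3 and 5 read 4.87 and 5.64 and the other 3 read 4.08, 4.35 and 4.00. The Pdx-1+/- arrays lay between 4.06 and 4.28 and the control arrays between 4.00 and 4.18. The difference from control of log2 0.50 (SE 0.23, limma adjusted p = 0.315) and from Pdx-1+/- of 0.44 (SE 0.25, adjusted p = 0.825) thus came mainly from 2 of 5 arrays, and without array 5 they were 0.24 (adjusted p = 0.45) and 0.17 (adjusted p = 0.999). Ncr1 encodes NKp46, an activating receptor used to identify natural killer cells and related innate lymphoid cells. It read 4.62, 4.87, 5.03, 4.55 and 5.36 on the IKK2-CA arrays, 4.68, 4.45, 4.19 and 4.41 on Pdx-1+/- and 4.82, 4.92, 4.80, 4.41 and 4.57 on control arrays. It was at 0.45 against Pdx-1+/- (SE 0.16, limma adjusted p = 0.523) but 0.18 against control (SE 0.15, adjusted p = 0.641), and without array 5 these were 0.33 (adjusted p = 0.915) and 0.062 (adjusted p = 0.879). For Pdx-1+/- minus control it was -0.27 (adjusted p = 0.999). Klrg1, an inhibitory receptor of mature killer and effector T cells, was flat. All 14 of its values lay between 3.79 and 4.12, and its difference from Pdx-1+/- was -0.0022 (95% interval -0.19 to 0.19).

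**Figure D2:**
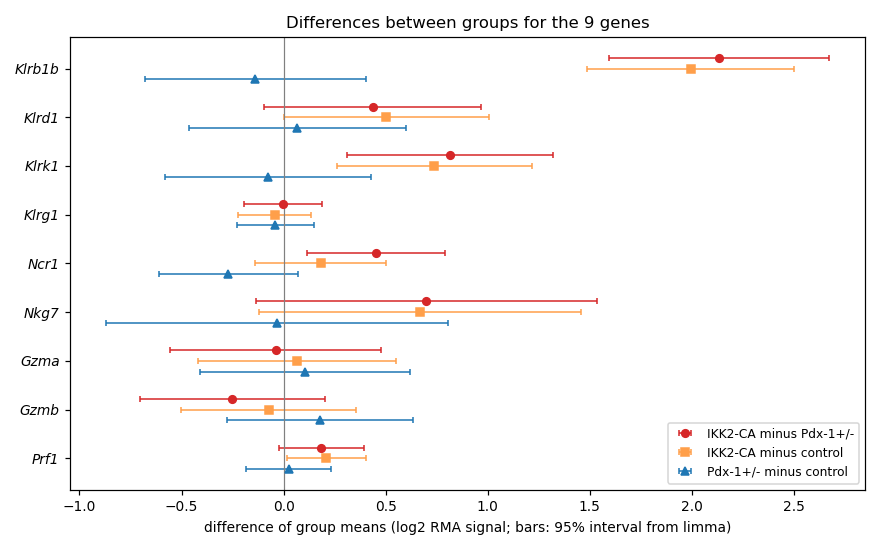
Difference between group means of each of the 9 genes (horizontal axis, log2 RMA signal) for the 3 comparisons, with 95% intervals from limma. Klrb1b (from 1.59 and 1.49) and Klrk1 (from 0.31 and 0.26) are the genes whose intervals lie above 0 in both comparisons with IKK2-CA; the Klrb1b values chose the gene and are a description.

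Nkg7, a membrane protein of cytotoxic granules, had the widest spread of the 9 genes within the IKK2-CA group, with an SD of 1.03. It read 5.93, 6.26, 7.54, 5.47 and 7.82 on the IKK2-CA arrays, against 5.40 to 6.17 on the Pdx-1+/- arrays and 5.63 to 6.17 on the control arrays. Arrays 3 and 5 averaged 7.68 and the other 3 averaged 5.89, and array 4 was below all 5 controls. The mean difference was log2 0.70 against Pdx-1+/- (SE 0.39, limma adjusted p = 0.815) and 0.67 against control (SE 0.37, adjusted p = 0.425). Without array 5 they were 0.40 (adjusted p = 0.999) and 0.36 (adjusted p = 0.645), and without array 3, 0.46 (adjusted p = 0.988) and 0.43 (adjusted p = 0.731).

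Prf1 encodes perforin. Its IKK2-CA arrays read 6.13, 5.79, 6.05, 5.80 and 5.98, its Pdx-1+/- arrays 5.83, 5.81, 5.55 and 5.86, and its control arrays 5.60, 5.92, 5.80, 5.69 and 5.70. The groups overlapped, and the differences were log2 0.19 against Pdx-1+/- (SE 0.10, limma adjusted p = 0.769) and 0.21 against control (SE 0.091, adjusted p = 0.273). Arrays 1, 3 and 5 were the highest of the IKK2-CA group, and array 1 was the highest of all 14.

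The differences of both granzymes had intervals on both sides of 0. Gzma, a tryptase-like granzyme, read 4.46, 4.36, 4.47, 4.42 and 5.07 there, and its highest value of all was on Pdx-1+/- array 4 (5.40), followed by IKK2-CA array 5 (5.07) and control array 3 (5.06). Its difference from Pdx-1+/- was log2 -0.039 (95% interval -0.55 to 0.48, limma adjusted p = 0.997) and from control 0.065 (-0.42 to 0.55, adjusted p = 0.943). Gzmb, which cleaves caspases, read 4.35, 4.37, 4.18, 3.96 and 4.59, and was likewise highest on Pdx-1+/- array 4 (5.27) and next on control array 3 (4.81). Its differences were -0.25 (-0.71 to 0.20, adjusted p = 0.916) and -0.073 (-0.50 to 0.36, adjusted p = 0.924). The top 2 arrays for Gzmb are those with intestinal genes. Without Pdx-1+/- array 4 the differences from Pdx-1+/- were 0.23 for Gzma (adjusted p = 0.764) and -0.0081 for Gzmb (adjusted p = 0.994).

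Among themselves the genes differed in how they moved from array to array within a group. After each group's mean was removed, the deviations of Klrd1 and Nkg7 over the 14 arrays had r = 0.89, and 0.94 over the 11 arrays left without the 3 that carry genes of other tissues, a check chosen after the data were seen. For Klrd1 and Klrk1 these were 0.91 and 0.79, and for Ncr1 and Nkg7 0.85 and 0.77. Gzma and Gzmb had 0.83 over 14 arrays but -0.03 over 11, so their likeness rests on those arrays. Klrb1b had 0.90 with Klrd1 and 0.83 with Klrk1, and 0.68 and 0.31 over the 11 arrays. With Nkg7 it had 0.69 and with Ncr1 0.68, and 0.70 and 0.56 over the 11. With Gzma it had 0.27 and with Klrg1 -0.27, and 0.29 and -0.02 over the 11. With Gzmb it had 0.11 and with Prf1 0.04, and -0.08 and 0.10 over the 11. These are descriptions over the same arrays, which share their RNA and their tissue mixture, and no p is given.

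**Figure D3:**
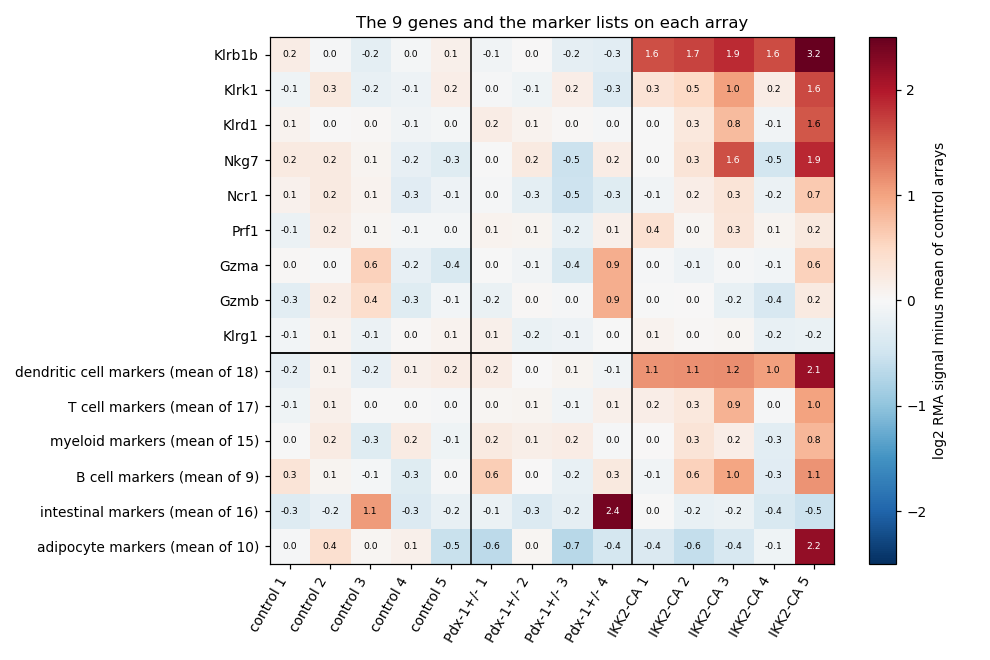
log2 RMA signal of the 9 genes and the mean of 6 marker lists on each of the 14 arrays, minus the mean of the 5 control arrays (colour scale and printed values). Klrb1b and the dendritic list are raised on all 5 IKK2-CA arrays, Nkg7, Klrd1 and the T cell list mainly on arrays 3 and 5, and Gzma, Gzmb and the intestinal list on Pdx-1+/- array 4 and control array 3. On IKK2-CA array 5 Gzma is about as high as on control array 3.

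The marker lists of other cells were followed beside these genes. Of 17 measured T cell markers, 0 passed against either group by limma, although all 17 were above 0 in both comparisons and 8 and 10 had an unadjusted p under 0.05. Over all genes 45.0% and 46.4% were above 0, and 7.02% and 15.7% had an unadjusted p under 0.05. The most abundant, Thy1, read 7.60 to 7.93 on the IKK2-CA arrays. Cd3e, a chain of the T cell receptor complex, read 6.65, 6.63, 7.62, 6.09 and 7.88 on the IKK2-CA arrays and at most 6.39 elsewhere. Cd3g read 4.98, 5.26, 6.64, 4.62 and 6.75, so arrays 3 and 5 were again the highest. The mean of the list lay between 5.16 and 6.20 on IKK2-CA, 5.11 and 5.32 on Pdx-1+/- and 5.10 and 5.33 on control arrays. Deviations from group means of Nkg7 and of this mean had r = 0.96 over 14 arrays, and 0.90 without the 2 arrays farthest out; for Klrd1 the values were 0.90 and 0.82, for Klrk1 0.85 and 0.60, and for Ncr1 0.77 and 0.53. The B cell list also had its highest means on arrays 3 and 5 (6.40 and 6.53, with 5.13 to 5.98 on the other IKK2-CA arrays, 5.22 to 6.02 on Pdx-1+/- and 5.11 to 5.73 on control arrays), and 0 of its 9 genes passed against either group (1 and 4 at an unadjusted p under 0.05). Cd79b, its most abundant gene, read 7.61 and 8.26 on arrays 3 and 5 and up to 7.44 on Pdx-1+/- arrays. With this mean Ncr1 had r = 0.89 (0.84 without the 2 arrays farthest out), Nkg7 0.87 (0.75), Klrd1 0.82 (0.82) and Klrk1 0.67 (0.36). The part of T or B cells in the levels of the 4 genes was not tested.

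Of 18 dendritic cell markers, 7 rose by limma against Pdx-1+/- (10 without IKK2-CA array 5 and Pdx-1+/- array 4) and 12 against control. Over all genes 0.0752% and 0.682% were called higher in the main fit. The pattern was already known for some of the markers when the list was chosen. Itgax, the CD11c chain, read 7.29, 7.32, 7.80, 7.50 and 9.36 on the IKK2-CA arrays, 5.48 to 5.80 on Pdx-1+/- and 5.44 to 6.12 on control arrays. Fscn1, the most abundant marker of the list, read 8.73 to 10.17 against 7.18 to 7.78 and 7.56 to 7.88. The list's mean lay between 7.21 and 8.34 on IKK2-CA arrays, 6.10 and 6.38 on Pdx-1+/- and 5.99 and 6.38 on control arrays. Like Klrb1b, it was higher on every IKK2-CA array than on any other. Klrb1b was chosen for its rise, and the list with the rise of some markers known, so this shared separation is only a description. Within groups, the deviations of Klrb1b and of this mean had r = 0.90 over 14 arrays but 0.19 without the 2 arrays farthest out (IKK2-CA array 5 and control array 5), so the relation inside groups rests on those arrays. The part of dendritic cells in the Klrb1b level was not tested. Myeloid markers overlapped between the groups as a list, at 7.80 to 8.89 on IKK2-CA, 8.04 to 8.28 on Pdx-1+/- and 7.76 to 8.27 on control arrays. The most abundant of them, Lyz2, differed by 0.04 in both comparisons (limma adjusted p = 0.996 and 0.96). Ccr2 was the 1 of 15 that passed, at 1.71 against control (adjusted p = 0.0251), where 0.682% of all genes were called higher. Without IKK2-CA array 5 and Pdx-1+/- array 4 Ccr2 passed against Pdx-1+/- too.

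Deviations of Gzmb and of the mean of 16 intestinal markers had r = 0.82, and those of Gzma 0.77. Without Pdx-1+/- array 4 and control array 3 they were -0.03 and -0.56, so both rest on those 2 arrays. The intestinal mean was 8.36 on the first and 7.03 on the second, and between 5.43 and 5.96 on the other 12 arrays. Whether tissue carried along with the islets set these granzyme levels was not tested.

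**Figure D4:**
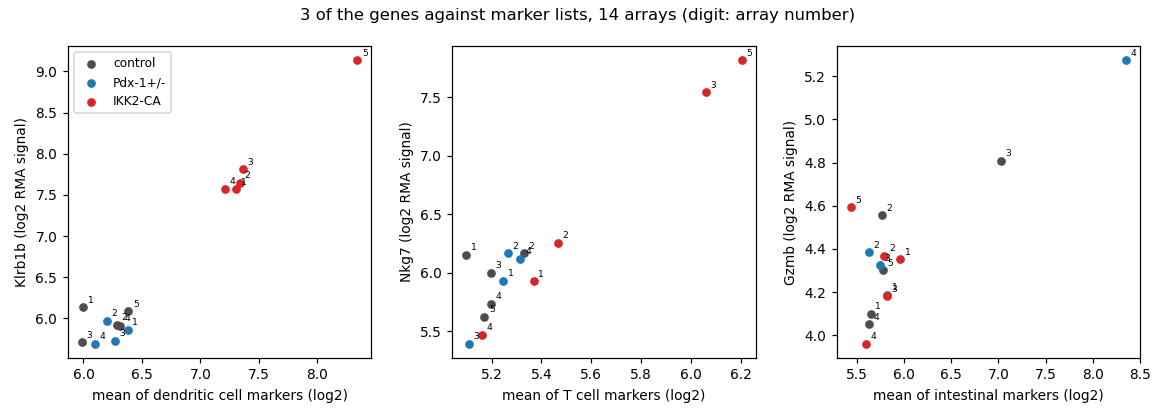
log2 RMA signal of Klrb1b, Nkg7 and Gzmb (vertical axes) against the mean log2 signal of the dendritic, T cell and intestinal marker lists (horizontal axes), 1 point per array with its number. Klrb1b splits into IKK2-CA and the rest, Nkg7 is high on IKK2-CA arrays 3 and 5, and Gzmb is highest on Pdx-1+/- array 4.

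By likeness over all 14 arrays, the genes nearest to Klrb1b were Itgax (Pearson r = 0.98), Gpr141b (0.98), Kmo (0.98), Plbd1 (0.98), Pilra (0.98) and Cd52 (0.97); within groups their r lay between 0.86 and 0.93, but between 0.084 and 0.59 over the 11 arrays without genes of other tissues, so the likeness within groups rests largely on the arrays left out. The genes nearest to the mean of the other 8 were Rasal3 (0.95), Tnfsf8 (0.94), Was (0.94), Ctla4 (0.94), Ccl20 (0.94) and Acp5 (0.94); within groups their r lay between 0.91 and 0.96, and between 0.81 and 0.96 over the 11 arrays. Klrb1b was chosen for its rise, so r over all 14 arrays favours genes that share its difference between groups. The likeness to Klrb1b over 14 arrays is therefore only a description. The same holds for the finding that no gene is in both sets of 6. The difference of Itgax from Pdx-1+/- was log2 2.21 and that of Rasal3 0.46.

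The other natural killer receptors were read from a list of 36, of which 30 were measured. Against Pdx-1+/- 0 passed by limma, and 17 had an unadjusted p under 0.05, all higher (7.02% of all genes). Against control 2 rose (0.682% of all genes), and 14 had an unadjusted p under 0.05, all higher (15.7% of all genes). Slamf7, a receptor of killer cells that is also found on B cells and dendritic cells, read 6.65, 7.03, 7.48, 6.69 and 8.84 on IKK2-CA arrays against 5.37 to 5.74 and 5.11 to 5.73. It was at log2 1.87 against control (SE 0.32, adjusted p = 0.0097) and 1.82 against Pdx-1+/- (SE 0.34, adjusted p = 0.0707). Without IKK2-CA array 5 and Pdx-1+/- array 4, Slamf7 was the 1 of the 30 that passed against Pdx-1+/-. Klri1, a lectin-like receptor, was at 0.59 against control (SE 0.14, adjusted p = 0.0421), a call lost without IKK2-CA array 5 and Pdx-1+/- array 4, where Klrb1f passed instead. Cd226, an activating receptor, and Il12rb2, a chain of the interleukin 12 receptor, were at 0.66 (adjusted p = 0.0603) and 0.58 (adjusted p = 0.0785) against control. Fcgr3, the most abundant of the list, which encodes the antibody receptor CD16, differed by 0.10 (adjusted p = 0.886).

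Adaptors and signalling genes of these receptors gave 0 of 15 measured against Pdx-1+/- by limma (5 at an unadjusted p under 0.05, beside 7.02% of all genes). Against control, where 0.682% of all genes were called higher, 1 of 15 rose. That gene was Sh2d1b1, the adaptor EAT-2 that acts below Slamf7 and its relatives. It read 4.58, 4.90, 4.83, 4.84 and 6.68 on IKK2-CA arrays against 3.49 to 3.87 and 3.63 to 3.86, at log2 1.44 against control (SE 0.29, adjusted p = 0.0217), and it passed against Pdx-1+/- too without the same 2 arrays. Plcg2, a phospholipase of receptor signalling, passed against control without them, though not when control array 3 was left out as well. Fcer1g, the most abundant, was at 0.39 (adjusted p = 0.459). Among 12 measured transcription factors of cytotoxic cells 0 passed against Pdx-1+/- (6 at an unadjusted p under 0.05, beside 7.02% of all genes). Against control 2 rose, beside 0.682% of all genes: Runx3, at 0.93 (SE 0.18, adjusted p = 0.017), and Id2, at 0.89 (SE 0.16, adjusted p = 0.014). IKK2-CA arrays lay wholly above control for both, beside 1.86% of all genes. The Runx3 call was lost without the 3 arrays with genes of other tissues. Eomes, which directs natural killer development, was at 0.34 (adjusted p = 0.182).

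Among 25 other granule and effector genes, Ccl5, a chemokine stored and released by killer cells but made by many others, was the 1 that rose against Pdx-1+/- (0.0752% of all genes). It read 8.78, 8.91, 9.91, 9.09 and 10.34 on IKK2-CA arrays and 7.59 to 8.24 elsewhere (log2 1.63, SE 0.26, limma adjusted p = 0.0262). Against control it rose by 1.44 (SE 0.24, adjusted p = 0.00962), and Rab27a, which moves granules to the membrane and also serves secretion in other cells, fell by 0.78 (SE 0.15, adjusted p = 0.0162). Serpinb9, an inhibitor of granzyme B, lay wholly higher on IKK2-CA arrays than in either group, beside 1.72% and 1.86% of all genes. It was at 1.23 (adjusted p = 0.13) and 1.00 (adjusted p = 0.0571). It passed against control without the same 2 arrays, and also without control array 3 as well. Stx11, needed for granule release, was at 1.14 (adjusted p = 0.311) and 1.08 (adjusted p = 0.0692). Srgn, the granule proteoglycan and the most abundant of the list, was at 0.43 (adjusted p = 0.592) and 0.47 (adjusted p = 0.145).

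Of 28 ligands and cytokines read by such receptors 20 were measured, and 0 passed by limma against Pdx-1+/- (7 at an unadjusted p under 0.05, beside 7.02% of all genes). Against control 1 rose (0.682% of all genes), Il12b, a subunit of interleukin 12, at log2 0.96 (SE 0.22, adjusted p = 0.0362), a call lost without the 3 arrays with genes of other tissues. Without IKK2-CA array 5 and Pdx-1+/- array 4 it passed against Pdx-1+/- too. The chemokine Cxcl9 read 9.05 and 9.85 on IKK2-CA arrays 3 and 5 and at most 7.61 on the other 3. It was at 1.87 against control (SE 0.49, adjusted p = 0.0638). Il15, a growth factor of natural killer cells, was at 0.39 (adjusted p = 0.18), and Cdh1, a cadherin bound by Klrg1 and the most abundant of the list, at -0.24 (adjusted p = 0.36). Clec2d, the ligand of Klrb1b, was named after its values were seen. It lay between 7.76 and 9.09 on IKK2-CA arrays, 7.36 and 8.35 on Pdx-1+/- arrays and 6.73 and 7.79 on control arrays. Its difference was 0.50 against Pdx-1+/- (SE 0.28, limma adjusted p = 0.812) and 0.82 against control (SE 0.26, adjusted p = 0.121).

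Klrb1b, Klrd1 and Klrk1 lie in the natural killer gene complex on chromosome 6, and their neighbours were listed in RefSeq order from Klrb1a to Klra2, a region chosen after values were seen. Of its 48 protein-coding genes 36 were measured. Besides Klrb1b, 0 of 35 passed by limma against Pdx-1+/-, and 3 rose against control (0.682% of all genes): Clec7a at log2 1.65 (adjusted p = 0.0111), Clec9a at 1.39 (adjusted p = 0.0114) and Klri1. Clec7a and Clec9a are lectin receptors of myeloid and dendritic cells. IKK2-CA arrays lay wholly above Pdx-1+/- arrays for 7 of the 35 (20.0%, beside 1.72% of all genes), namely Klrb1f, Clec9a, Clec7a, Olr1, Klrk1, Klra5 and Klra2. The count against control was 3 (8.57%, beside 1.86%): Klrb1f, Clec9a and Clec7a. Of the 7, Klra2 was at log2 1.39 against Pdx-1+/-, Olr1 at 0.50 and Klra5 at 0.18. Klra5 read at most 3.53 on any array. The other measured Klrb1 genes of the region had smaller differences than Klrb1b, which was chosen for its difference. Against Pdx-1+/-, Klrb1c, which encodes the NK1.1 antigen, was at 0.28 (SE 0.19, adjusted p = 0.875) and Klrb1a at 0.20 (SE 0.11, adjusted p = 0.81). Klrb1f was at 0.78 (SE 0.26, adjusted p = 0.455) and Klrb1 at 0.04 (SE 0.10, adjusted p = 0.988). NK1.1 marks natural killer cells in C57BL/6 mice, whereas the background here is mixed. Klrb1c read at most 4.03 on the IKK2-CA arrays other than array 5 (4.79). The Pdx-1+/- arrays gave 3.35 to 4.02 and the control arrays 3.57 to 3.91. Its difference from control was 0.36 (SE 0.18, limma adjusted p = 0.378).

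**Figure D5:**
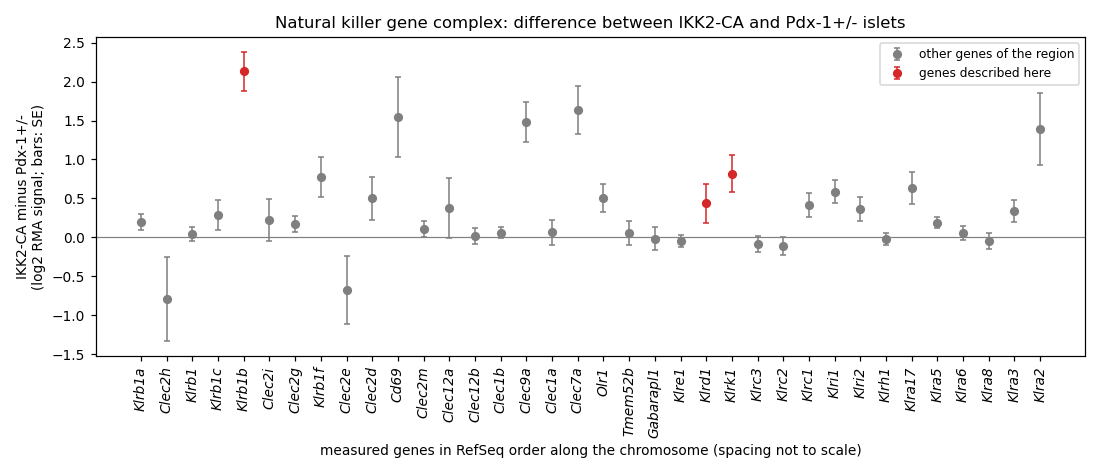
Difference of IKK2-CA from Pdx-1+/- islets (vertical axis, log2 RMA signal, with the SE) for the 36 measured genes of the natural killer gene complex, in chromosome order and not to scale; red marks the genes described here. Klrb1b (2.13) stands above all neighbours, of which Clec7a (1.63) is the next. Klrb1b was chosen for its difference, so its place is only a description.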

How the data were processed

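Islet RNA was hybridised to Mouse Gene 1.0 ST arrays of Affymetrix, per the labels. The authors summarised the probes of each transcript cluster with RMA in Affymetrix Expression Console, per the submitters' processing notes, and deposited log2 signals. The log base was read from their range; software version and annotation build: not given in the sources used here. No further normalization or filter was applied. Of 35556 clusters, those whose annotation names 1 gene (21789) were used, and 999 genes with several clusters were read from the one of highest mean, giving 19938 genes. The array medians ranged from 6.45 to 6.55; with arrays, their number limits the precision.

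1 model with 3 group means over all 14 arrays was fitted with limma 3.58.1 (R 4.3.3; lmFit, eBayes; residual degrees of freedom 11, prior 3.46), and p-values were adjusted by Benjamini-Hochberg over all genes, with a threshold of 0.05. The method was tested on simulated data. Named are the 9 genes, up to 4 genes with the smallest p against Pdx-1+/- in each list plus the most abundant marker, and the 6 genes most like Klrb1b and most like the mean of the other 8; other named genes are said to be so in the text. The genes and lists were chosen with earlier results of these data known. Alternatives covered scaling, the variance model, the groups fitted, a filter on low values, cluster choice, array weights, a block for replicate number, and single or combined arrays left out.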

Additional observations from a re-analysis of the deposited data

Results flagged for a closer look

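A single array lay far from the rest of its group in 7 of 69 sets of values tested with Dixon's criterion, which chance gives in about 1 of 20; for the 9 genes the count was 2 of 27. Klrb1b read 9.13 on IKK2-CA array 5, against 7.57 to 7.81 on the other 4 arrays of the group. Gzma read 5.07 on the same array, against 4.36 to 4.47.

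The other 5 concern means of marker lists. On IKK2-CA array 5 the dendritic mean was 8.34 (7.21 to 7.36 on the rest of the group), the adipocyte mean 9.30 (6.50 to 6.98) and the acinar mean 12.15, the lowest of its group (12.51 to 12.65). The intestinal mean was 7.03 on control array 3 (5.63 to 5.78) and 8.36 on Pdx-1+/- array 4 (5.62 to 5.82). The part of these tissue genes in the levels of Klrb1b and Gzma was not tested.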

How the results depend on the processing

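Klrb1b was higher in IKK2-CA islets under every alternative run, at log2 1.80 to 2.23 against Pdx-1+/- and 1.64 to 2.09 against control. The other 8 genes gave 0 calls under every alternative against Pdx-1+/- and in Pdx-1+/- against control. Against control they gave 1 call under array weights and 0 to 1 with single arrays left out, the call being Klrk1 (0.56 and 0.88).

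Over all genes, calls against Pdx-1+/- numbered 15, and 1 when only the 2 groups were fitted, 52 with array weights, 52 without IKK2-CA array 5 and Pdx-1+/- array 4, 48 without control array 3 as well, and 2 to 66 with single arrays left out (2 without any 1 of Pdx-1+/- arrays 1 to 3, 66 without IKK2-CA array 5). Against control they numbered 448, and 241, 1431, 186 (without the 3 arrays) and 120 to 980 (120 without control array 3, 980 without IKK2-CA array 4). For Pdx-1+/- against control they numbered 19, and 73 with array weights, 11 without the 3 arrays and 9 to 48. The cause of these shifts was not tested.

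Replicate numbers recur in the groups, and the labels do not say that they pair arrays. Deviations of same-number arrays had r from -0.39 to 0.36 (median -0.050, 2 of 13 over 0.1). Those of different-number arrays had r from -0.44 to 0.47 (median 0.033, 20 of 52 over 0.1). These values do not settle whether arrays were paired. With the replicate number as a block, calls over all genes numbered 9, 197 and 9, and the sign turned for Klrg1 against Pdx-1+/- (0.0028) and, in Pdx-1+/- against control, for Nkg7 (0.081), Klrb1b (0.027) and Klrk1 (0.056).

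Signs of uncalled differences near 0 also turned elsewhere. Against Pdx-1+/-, Klrg1 was at 0.020 with median centring, 0.033 with quantile normalization, 0.050 with array weights and 0.042 without the 2 or the 3 arrays. Gzma was at 0.053 with array weights and 0.10 without the 2 or the 3 arrays there, and at -0.063 against control without the 2. In Pdx-1+/- against control, Prf1 was at -0.00027 with centring, -0.010 with quantile normalization and -0.0093 without the 2. Array weights gave Nkg7 0.0072 and Gzma -0.042. Without the 2 arrays Gzma was at -0.16, Klrk1 at 0.0087 and Gzmb at -0.065, and without the 3 Gzma was at -0.021. With single arrays left out, Gzma against Pdx-1+/- ranged from -0.20 to 0.23 and Klrg1 from -0.047 to 0.056; against control, Gzma ranged from -0.063 to 0.21 and Gzmb from -0.15 to 0.038. In Pdx-1+/- against control the ranges were -0.16 to 0.0087 for Klrk1, -0.099 to 0.0040 for Klrg1, -0.12 to 0.14 for Nkg7, -0.16 to 0.27 for Gzma, -0.065 to 0.30 for Gzmb and -0.011 to 0.094 for Prf1. The filter on low values removed 6 of the 9 genes, so it gives them no value.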
